A study of Mus musculus with 8 samples.

Results

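The genes described here copy the genome and make its building blocks. They are 46 genes for the MCM helicase, the origin recognition complex and its loading factors, the GINS complex and Cdc45, the sliding clamp and its loader, the single-strand binding protein RPA, the replicative polymerases with primase, the enzymes that join Okazaki fragments, and 5 enzymes of deoxynucleotide supply. The members were a list of gene symbols. A gene was included where a probe set of the array carries its symbol and no other, and the probe set with the highest mean over all arrays stood for the gene. All 46 listed genes were found, of 19938 genes that could be named in this way. Pcna, Rpa3 and Tk1 have 2 such probe sets and the other 43 genes have 1.

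Expression was measured on 8 Affymetrix arrays, each hybridised with RNA from cultured mouse spermatogonial stem cells. Such cells renew themselves and sustain sperm production. Cells of 8-day-old donors cultured for 7 to 10 weeks gave 3 arrays, which the labels call not aged (young donor, short culture). Cells of donors of the same age, 8 days, cultured for 14 to 18 months gave 3 arrays, labelled aged in vitro (young donor, long culture). The last 2 arrays, labelled aged in vivo and in vitro, held serially transplanted cells with a donor age given as 1500 days. Whether that is the age of an animal or of a transplant line is not said in the labels. These cells were also cultured for 14 to 18 months (serial transplant, long culture). In that group donor age and transplantation between testes came together and cannot be told apart. The labels give no strain or sex, and they do not say whether replicates were separate donors or cultures. The spread that the p-values rest on is that between arrays, and it may be technical. Values are log2 signals, and every difference below is a difference of log2 signals. In such bulk RNA, fewer cells of a type and less of an RNA per cell cannot be told apart.

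Replication begins at origins that the origin recognition complex (ORC) marks. Cdc6 and Cdt1 load the ring-shaped Mcm2 to Mcm7 helicase there, and geminin (Gmnn) holds Cdt1 in check so that an origin is used once per cycle. In S phase Cdc45 and the GINS complex join the ring and switch it on. RPA then coats the exposed single strands, primase starts each new strand, the RFC loader places the PCNA clamp, and polymerases delta and epsilon extend the chains. Ribonucleotide reductase, thymidylate synthase, thymidine kinase and dUTPase supply balanced deoxynucleotides. Many of these genes are targets of E2F transcription factors, which the retinoblastoma family restrains outside S phase. Self-renewing germ cells in culture divide over long periods and pass through this program at each division.

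One array stood apart before any comparison. Young short-culture replicate 2 had the lowest signal of the 8 arrays for 43 of 46 members and the lowest of its own group for 45. Relative to each gene's mean over the 8 arrays, its members had a median of -0.40, where the other 7 arrays lay between -0.09 and 0.14. The same array had the highest medians of fibroblast markers (0.76) and leukocyte markers (0.99) and the lowest of germ cell markers (-0.38). All 18 markers of germ cells lay above 6.94, the median of all probe sets, which serves as a mark of dim signal. Of the fibroblast markers 14 of 17 did, among them the collagens Col1a1, Col1a2 and Col3a1, while Tagln, Fap and Lum did not. The mean fibroblast signal was 9.37 to 9.85 in short culture, 8.88 to 8.91 in long culture of young donors and 8.44 to 8.91 after serial transplantation. Only 1 of 10 leukocyte markers (Cd68), 4 of 10 Sertoli markers and 1 of 5 measured Leydig markers lay above the mark. The leukocyte list averaged 6.31 to 7.12 in short culture, 5.34 to 5.44 in long culture of young donors and 5.50 to 5.51 after serial transplantation. Between long and short culture of young donors 12 of 17 fibroblast markers, 6 of 10 leukocyte markers and 3 of 5 Leydig markers fell (medians -0.72, -1.14 and -0.51). Of all probe sets 5.83% were called lower there and 5.44% higher. Germ cell markers were positive for 15 of 18 in that comparison, with 5 called higher, 2 called lower and a median of 0.19. Without short-culture replicate 2 the germ cell median there was 0.11, with 2 called higher and 1 lower. Over all 28939 probe sets 1036 were then called higher and 1255 lower. The fibroblast, leukocyte and Leydig medians were -0.63, -0.96 and -0.46 without that array. Against young short culture the serial-transplant cells also had 15 of 18 germ cell markers positive, with 4 called higher, 1 called lower and a median of 0.28. Of all probe sets 3.58% were called higher in that comparison and 5.15% lower. Without short-culture replicate 2 the germ cell median there was 0.15, with 4 called higher and 1 lower. Over all probe sets 778 were then called higher and 1302 lower. Thy1 is on both the germ cell and the fibroblast list. In both comparisons that involve short culture the medians of germ cell markers and of replication genes were positive. Those of fibroblast, leukocyte and Leydig markers were negative in both, and those of Sertoli markers were -0.07 and -0.05. The part of all these markers in the results was not tested. Counts of members called and list medians of the replication genes are given with and without short-culture replicate 2, and each member's difference between long and short culture without it is drawn in the plot of differences by role.

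**Figure D1:**
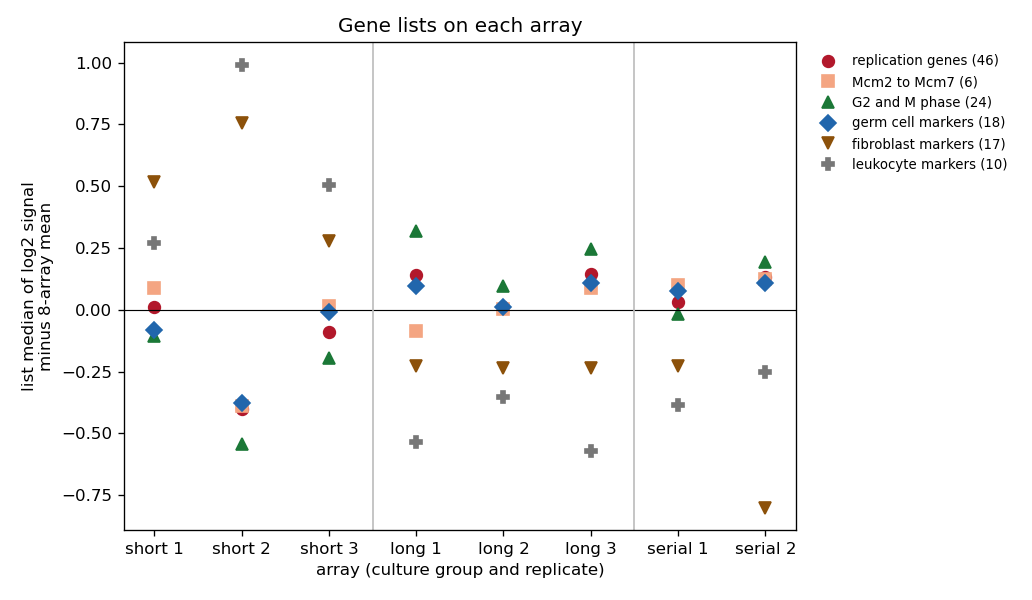
Median of each gene list (log2 signal minus the gene's mean over 8 arrays, vertical axis) on each array (horizontal axis, by culture group), with the number of genes in brackets. The replication genes lie at -0.40 on short-culture replicate 2, where the fibroblast and leukocyte lists are highest (0.76 and 0.99), and between -0.09 and 0.14 on the other arrays.

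The first comparison asks how the machinery differs after more than a year in culture at the same donor age. In long culture 6 of 46 genes rose: the RPA subunits Rpa2 and Rpa3, the clamp loader subunits Rfc3 and Rfc5, the primase subunit Prim1 and the polymerase epsilon catalytic subunit Pole. Their folds ran from 1.33 for Rfc3 to 1.60 for Rpa3. No member fell, and none of the 6 subunits of the MCM helicase passed the test. The 6 genes are 13.0% of the members. Of all probe sets tested 5.44% were called higher and 5.83% lower, and of those above the median mark 9.23% were called higher (limma, Benjamini-Hochberg adjusted p under 0.05). The difference was positive for 42 of 46 members, with a median of 0.24, against -0.04 over all probe sets and 0.05 over those above the mark. All 3 long-culture arrays lay above all 3 short-culture arrays for 18 members (39.1%), against 25.0% of probe sets above the mark. No member had all 3 below, against 16.6%. Over all probe sets the calls split into 1573 higher and 1687 lower, or 1965 and 1334 with arrays centred on their medians, where 7 members were called higher.

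The counts depended on single arrays. Leaving out short-culture replicate 2, the median was 0.14, 33 of 46 members were positive and 1 gene, Rpa2, was called (2.17% of members, against 3.58% of all probe sets and 5.87% of those above the mark). Rpa2 was also the 1 call left without long-culture replicate 1 and without long-culture replicate 3, while 3 members were called without long-culture replicate 2 and 4 without short-culture replicate 3. Calls over all probe sets moved too, from 1573 higher with all arrays. They were 597 without long-culture replicate 1, 480 without long-culture replicate 3 and 1155 without long-culture replicate 2. Without short-culture replicate 3 they were 1436. Rpa2 was past the threshold in all 14 alternatives tried, with differences of 0.49 to 0.61 and adjusted p between 0.00322 and 0.0472.

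**Figure D2:**
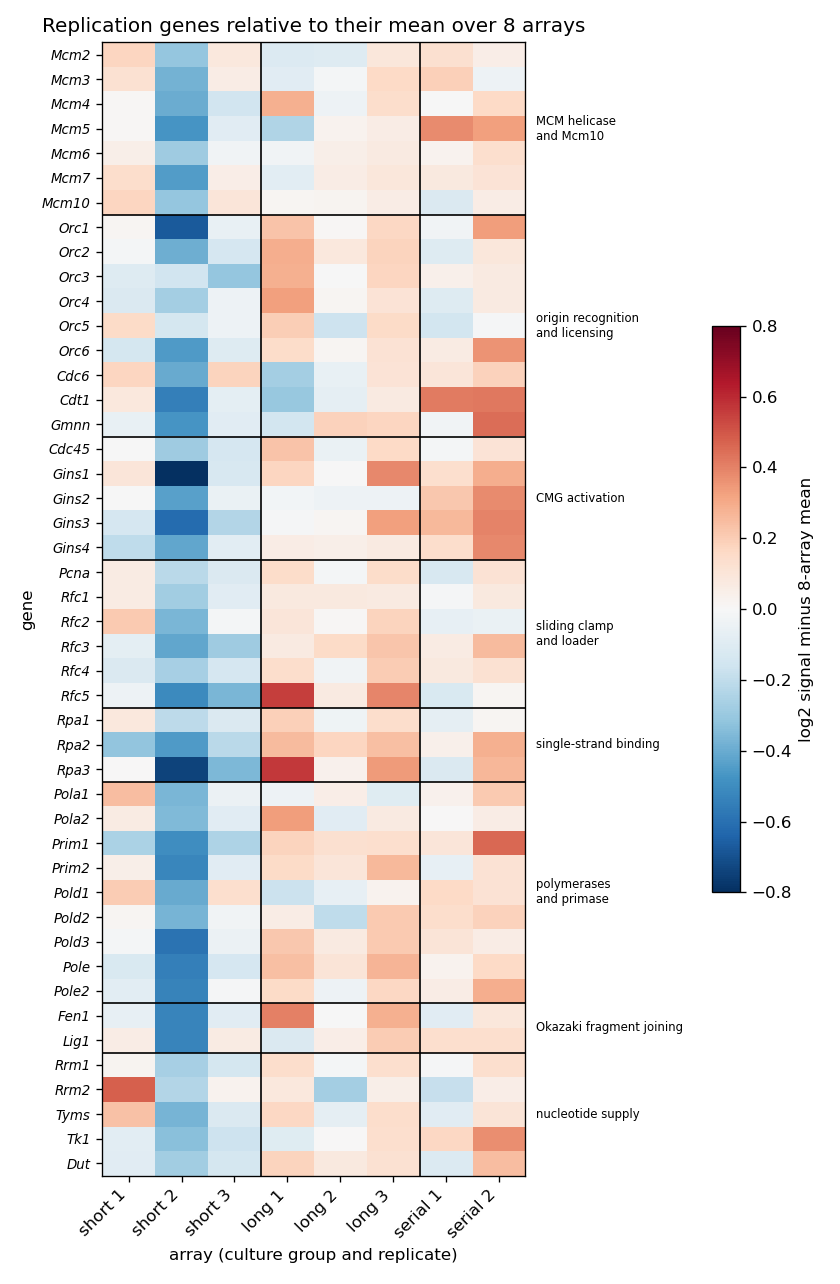
Log2 signal of each of the 46 genes on each array, minus the gene's mean over the 8 arrays (colour scale, log2), with genes grouped by role and arrays by culture group; Gins1 on short-culture replicate 2 lies beyond the end of the scale. Short-culture replicate 2 is the lowest array for 43 of 46 genes, and Mcm5 and Cdt1 are highest on the 2 serial-transplant arrays.

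To see what the genes share in sequence, RefSeq promoter windows of assembly GRCm38.p6 (250 bases before to 50 after the start) were searched on both strands for 4 forms of the E2F motif, TTTGGCGC, TTTCCCGC, TTTGCCGC and TTTCGCGC. A window was listed for 38 of the 46 members, and 15 of these genes (39.5%) held a match. Over all 27018 genes with a window the share was 2.61%. By windows it was 15 of 46 for the members (32.6%) and 2.27% of all 32841 windows. GC content averaged 58.7% in the members' windows and 53.8% in all windows. None of the 21 genes with a window on a list of G2 and M phase genes held a match, at a GC content of 60.1%. There the short CHR motif TTTGAA was found in 16 of 21 genes (76.2%), against 13.2% of the members and 20.2% of all genes. The CHR search was added after the data were seen. A motif match is a description of the letters and not a site. The 160 bases upstream of the start, on the gene's own strand, are shown for the 4 members with the smallest p between long and short culture among those with a match before the start and within these bases. They are Rfc3 (chr5:151651209-151651368, minus strand), Orc3 (chr4:34614943-34615102, minus strand), Gins3 (chr8:95633399-95633558, plus strand) and Orc1 (chr4:108579294-108579453, plus strand). Mcm5 (chr8:75109349-75109508, plus strand), chosen after its values were seen, is added for its difference after serial transplantation. Capitals mark the matches, of which Gins3 and Orc1 carry theirs on the opposite strand.
Rfc3: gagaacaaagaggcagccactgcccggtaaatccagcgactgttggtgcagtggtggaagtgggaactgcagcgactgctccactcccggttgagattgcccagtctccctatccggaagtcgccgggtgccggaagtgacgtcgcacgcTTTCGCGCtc
Orc3: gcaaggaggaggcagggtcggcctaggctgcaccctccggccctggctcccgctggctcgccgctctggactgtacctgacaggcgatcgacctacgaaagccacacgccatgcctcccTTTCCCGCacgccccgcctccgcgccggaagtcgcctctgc
Gins3: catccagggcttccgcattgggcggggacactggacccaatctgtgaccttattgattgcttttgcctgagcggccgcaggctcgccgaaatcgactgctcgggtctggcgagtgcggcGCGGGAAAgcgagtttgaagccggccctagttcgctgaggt
Orc1: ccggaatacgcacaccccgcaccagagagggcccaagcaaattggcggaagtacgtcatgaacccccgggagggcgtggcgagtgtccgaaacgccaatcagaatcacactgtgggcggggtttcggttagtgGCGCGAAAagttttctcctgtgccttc
Mcm5: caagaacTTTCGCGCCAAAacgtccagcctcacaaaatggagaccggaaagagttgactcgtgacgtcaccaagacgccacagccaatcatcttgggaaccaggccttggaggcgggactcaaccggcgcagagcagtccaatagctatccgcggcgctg
The matches begin 10 bases upstream of the start in Rfc3, 41 in Orc3, 41 in Gins3 and 27 in Orc1. In Mcm5 a match on each strand, beginning 153 and 149 bases upstream, shares bases in 1 run of capitals. Rfc3 has a further match in its window outside the stretch shown. Pold3, whose p is smaller than that of Orc1, has its match after the start and is not shown. The same holds for Cdt1, whose p between serial transplant and young donors in long culture is smaller than that of Mcm5.

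Genes with a match and genes without one were set side by side with no test. Between long and short culture of young donors the 15 matched genes had a median of 0.13 and the 23 unmatched genes one of 0.23, or -0.01 and 0.15 without short-culture replicate 2. One of the 15 (Rfc3) and 4 of the 23 were called. In long culture, serial transplant against young donors, 13 of 15 matched genes and 5 of 23 unmatched genes were positive (medians 0.08 and -0.06), and none was called. Against young short culture the serial-transplant values of all 15 matched genes were positive (median 0.27), as were 20 of 23 unmatched genes (median 0.19). The 8 genes with no window listed had medians of 0.30, -0.01 and 0.39. These comparisons share arrays with each other.

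**Figure D3:**
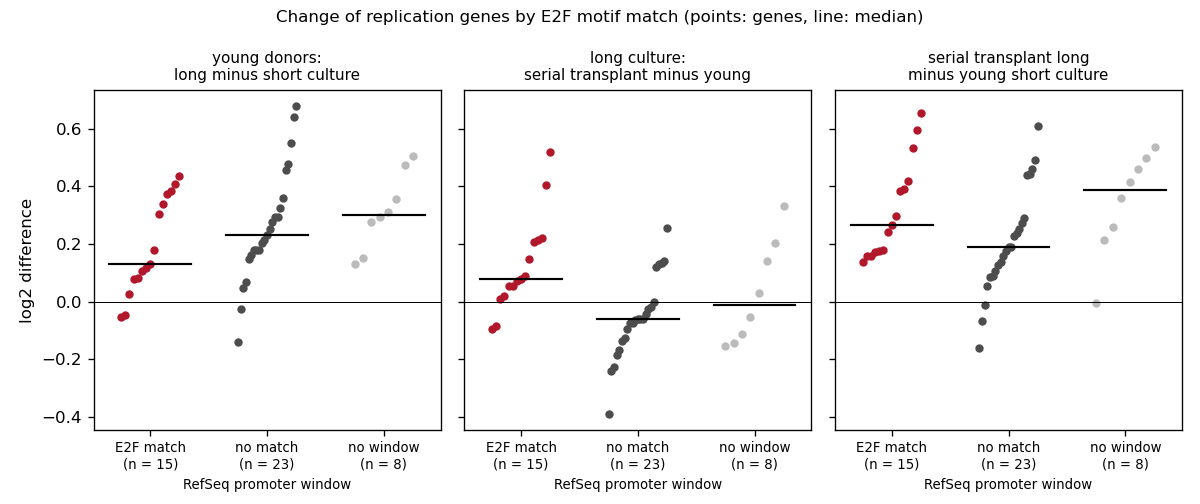
Log2 difference of each gene (points, vertical axis) in the 3 comparisons, by whether its RefSeq promoter window holds an E2F motif match, with the median as a line. In long culture 13 of 15 matched genes lie above 0 after serial transplantation, with a median of 0.08, and 5 of 23 unmatched genes do, with a median of -0.06.

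The MCM helicase had the smallest median difference of the roles between long and short culture, at 0.11, where RPA had the largest, at 0.55. Mcm2 to Mcm7 ranged from -0.03 to 0.31, and their median was -0.04 without short-culture replicate 2. Mcm10, which stabilises the helicase once origins fire, differed by 0.05 ± 0.13 (SE; limma, adjusted p = 0.850), or -0.10 without that array. Mcm4, one of the catalytic ring subunits, read 10.67, 10.26 and 10.51 in short culture, 10.95, 10.62 and 10.80 in long culture and 10.66 and 10.82 after serial transplantation. Long-culture replicate 2 lies inside the short-culture range, and the difference of 0.31 ± 0.13 did not pass (adjusted p = 0.147) and was 0.20 without short-culture replicate 2. Mcm2 showed almost the same group means, 11.33 ± 0.26 (SD, n = 3) in short culture and 11.30 ± 0.11 (n = 3) in long culture, with a 95% interval of the difference from -0.31 to 0.26. Without short-culture replicate 2 the difference of Mcm2 was -0.17. Mcm5, a ring subunit at the gate through which DNA enters, was highest after serial transplantation. Its signals were 10.48, 10.00 and 10.38 in short culture, 10.23, 10.50 and 10.53 in long culture, and 10.85 and 10.80 after serial transplantation. Both serial-transplant arrays lay above the other 6, while the young groups overlapped. Serial transplant minus young donors in long culture came to 0.40 ± 0.15 (unadjusted p = 0.0214, adjusted p = 0.611). Against young short culture it came to 0.53 ± 0.15 (adjusted p = 0.0507), just outside the threshold. That p was 0.0432 without short-culture replicate 1 and 0.0913 without replicate 2.

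Among the origin recognition and licensing genes 5 of the 6 ORC subunits had larger differences with culture time than the loaders Cdc6 and Cdt1, a contrast that was not tested. Orc1, Orc2, Orc3, Orc4 and Orc6 differed by 0.29 to 0.37 and Orc5 by 0.07, and none passed the test. The smallest adjusted p was that of Orc3 (0.0639). Orc2, Orc3, Orc4 and Orc6 had all 3 long-culture arrays above all short-culture arrays, as had 39.1% of all members and 25.0% of probe sets above the median mark. Orc1, the subunit whose level follows the cell cycle, read 8.30, 7.61 and 8.22 in short culture, 8.51, 8.29 and 8.45 in long culture and 8.25 and 8.62 after serial transplantation. Short-culture replicate 2 is the low value there. The difference of 0.37 ± 0.17 (adjusted p = 0.198) came to 0.16 without it. Orc3 kept its difference without that array (0.34 with it, 0.36 without), while Orc2, Orc4 and Orc6 came to 0.26, 0.23 and 0.21. Of the loaders, Cdc6 differed by -0.05 ± 0.16 (adjusted p = 0.863) and Cdt1 by 0.08 ± 0.16 (adjusted p = 0.797), or -0.25 and -0.11 without short-culture replicate 2.

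Cdt1 was the member with the largest difference between serial transplant and young donors in long culture. It read 10.22, 9.58 and 10.05 in short culture and 9.82, 10.06 and 10.20 in long culture of young donors. The serial-transplant arrays read 10.55 and 10.55, above all 6 others. The difference in long culture was 0.52 ± 0.17, a fold of 1.43 (unadjusted p = 0.0123, adjusted p = 0.549), and against young short culture 0.60 ± 0.17 (adjusted p = 0.0582). The latter p was 0.0366 without short-culture replicate 1 and 0.0958 without replicate 2. Gmnn, the inhibitor of Cdt1, was 7.27 ± 0.19 (SD, n = 3) in long culture of young donors and 7.41 ± 0.34 (n = 2) after serial transplantation, a difference of 0.14 ± 0.18 (adjusted p = 0.917).

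The genes that switch the helicase on, Cdc45 and the GINS subunits, had a median of 0.29 between long and short culture and 0.50 between serial transplant and short culture, or 0.20 and 0.32 without short-culture replicate 2. Gins1 read 8.64, 7.59 and 8.41 in short culture, 8.71, 8.54 and 8.92 in long culture and 8.67 and 8.83 after serial transplantation. Replicate 2 of short culture lay far below its group there. The difference between long and short culture was 0.51 ± 0.22 (adjusted p = 0.169) with it and 0.20 ± 0.13 without it. Gins2 stood at 8.39, 7.96 and 8.35 in short culture, 8.38, 8.35 and 8.36 in long culture and 8.61 and 8.78 after serial transplantation. The serial-transplant arrays of Gins2 lay above all 6 others, by 0.33 ± 0.14 over long culture of young donors (unadjusted p = 0.0329, adjusted p = 0.650).

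Gins3 and Gins4 had successively higher group means from short culture to long culture to serial transplant. For Gins3 the arrays gave 8.27, 7.79 and 8.17, then 8.39, 8.42 and 8.73, then 8.67 and 8.80. For Gins4 they gave 9.44, 9.23 and 9.57, then 9.71, 9.69 and 9.72, then 9.79 and 10.03. In both genes every long-culture array, whatever the donor, lay above every short-culture array. Between long and short culture of young donors the differences did not pass, at 0.44 ± 0.14 for Gins3 (adjusted p = 0.0693) and 0.29 ± 0.11 for Gins4 (adjusted p = 0.121). Both rose in serial transplant against young short culture, Gins3 by 0.66 ± 0.16 (fold 1.58, adjusted p = 0.0257) and Gins4 by 0.50 ± 0.13 (fold 1.41, adjusted p = 0.0321). Gins3 kept its call without short-culture replicate 2 (0.51, adjusted p = 0.0437) and lost it without serial-transplant replicate 1 (0.0780) or 2 (0.241). Gins4 lost its call without short-culture replicate 1 (0.0644) or 2 (0.0624) and without serial-transplant replicate 2 (0.331).

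Of the clamp and its loader, Rfc3 and Rfc5 rose between long and short culture. Pcna, the ring that tethers polymerases to DNA, was 11.03 ± 0.14 (SD, n = 3) in short culture and 11.21 ± 0.09 (n = 3) in long culture, a difference of 0.18 ± 0.11 (adjusted p = 0.343), and its other probe set gave 0.20 ± 0.11 (adjusted p = 0.300). Rfc5, a small subunit of the loader, read 9.76, 9.30 and 9.44 in short culture, 10.36, 9.88 and 10.20 in long culture and 9.68 and 9.82 after serial transplantation. The young long-culture arrays lay above all others of the gene, and those after serial transplantation overlapped short culture. Rfc5 rose by 0.64 ± 0.15 with culture time (fold 1.56, adjusted p = 0.0197). The call was lost without short-culture replicate 2 (0.0525), long-culture replicate 1 (0.0826) or long-culture replicate 3 (0.0814). Serial transplant minus young donors in long culture was -0.39 ± 0.17 for Rfc5 (unadjusted p = 0.0368, adjusted p = 0.659), the lowest of the members.

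Rfc3, another small subunit, read 9.52, 9.18 and 9.32 in short culture, 9.67, 9.75 and 9.82 in long culture and 9.67 and 9.85 after serial transplantation. Both long-culture groups lay above all short-culture arrays and overlapped each other. It rose by 0.41 ± 0.11 between long and short culture of young donors (fold 1.33, adjusted p = 0.0394). The call held without short-culture replicate 1 and was lost without each of the other 5 arrays of these groups, with adjusted p from 0.0788 to 0.152. The serial-transplant difference from short culture was 0.42 ± 0.13 (adjusted p = 0.0639, and 0.0421 without short-culture replicate 1). The remaining subunits Rfc1, Rfc2 and Rfc4 differed by 0.15 to 0.28 between long and short culture and did not pass.

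Of the single-strand binding protein RPA, 2 of 3 subunits rose with culture time. Rpa2, the middle subunit, which is phosphorylated in the cell cycle and under replication stress, read 10.51, 10.37 and 10.62 in short culture, 11.08, 11.00 and 11.07 in long culture and 10.87 and 11.11 after serial transplantation. All 5 long-culture arrays lay above all short-culture arrays. It rose by 0.55 ± 0.11 between long and short culture of young donors (fold 1.46, adjusted p = 0.00932) and by 0.49 ± 0.12 between serial transplant and short culture (fold 1.41, adjusted p = 0.0267). Without short-culture replicate 2 these were 0.49 (adjusted p = 0.0217) and 0.43 (adjusted p = 0.0529). The second of these calls was also lost without short-culture replicate 1 (0.0596) or serial-transplant replicate 2 (0.302). Between the long-culture groups Rpa2 differed by -0.06 ± 0.12, with a 95% interval from -0.32 to 0.20.

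Rpa3, the small subunit, read 8.16, 7.42 and 7.80 in short culture, 8.73, 8.20 and 8.50 in long culture and 8.04 and 8.43 after serial transplantation. Its groups were separate in the young cultures by the narrow gap between 8.16 and 8.20, and the serial-transplant arrays overlapped both. It rose by 0.68 ± 0.19 between long and short culture (fold 1.60, adjusted p = 0.0426). The call was lost without short-culture replicate 2 (0.113) or 3 (0.0727) and without long-culture replicate 1 (0.161) or 3 (0.130). The dimmer probe set of Rpa3 gave 0.30 ± 0.11 (adjusted p = 0.0931), with no overlap of the arrays. Rpa1, the large DNA-binding subunit, differed by 0.18 ± 0.11 and did not pass (adjusted p = 0.332). After serial transplantation Rpa3 was -0.24 ± 0.21 against young donors in long culture (adjusted p = 0.862).

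**Figure D4:**
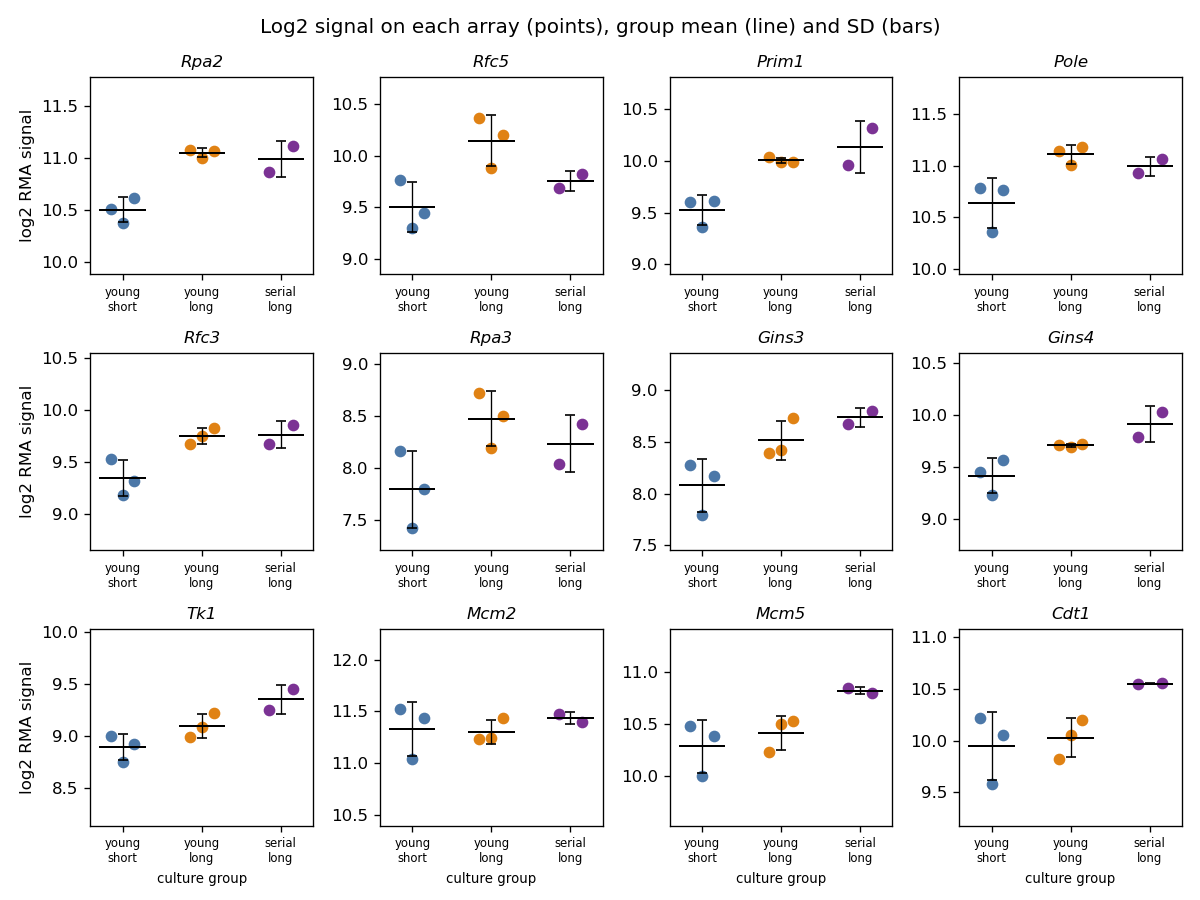
Log2 signal of 12 genes (panels, vertical axis) on each array (points) in the 3 culture groups, with the group mean (line) and SD (bars; n = 3, 3 and 2). All 5 long-culture arrays of Rpa2 lie above its short-culture arrays, while Mcm5 and Cdt1 are highest in both serial-transplant arrays and Mcm2 overlaps in every group.

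Among primase and the polymerases, Prim1 and Pole rose with culture time and the other 7 genes did not pass. Prim1, the catalytic primase subunit, read 9.60, 9.36 and 9.61 in short culture, 10.03, 9.99 and 9.99 in long culture and 9.95 and 10.31 after serial transplantation. The 5 long-culture arrays lay above all short-culture arrays. It rose by 0.48 ± 0.12 in young donors (fold 1.39, adjusted p = 0.0247) and by 0.61 ± 0.13 in serial transplant against short culture (fold 1.53, adjusted p = 0.0163). The first call was lost without short-culture replicate 2 (0.0620) or any 1 of the long-culture arrays (0.0590 to 0.0858). The second held without short-culture replicate 2 (0.53, adjusted p = 0.0315) and was lost without serial-transplant replicate 2 (0.231). Its partner Prim2 differed by 0.36 ± 0.14 between long and short culture (adjusted p = 0.129), or 0.19 without short-culture replicate 2.

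Pole, the leading-strand polymerase, read 10.78, 10.36 and 10.77 in short culture, 11.15, 11.00 and 11.18 in long culture and 10.93 and 11.06 after serial transplantation. No array of long culture reached down to those of short culture. It rose by 0.47 ± 0.13 (fold 1.39, adjusted p = 0.0347), a call lost without short-culture replicate 2 (0.0706) or any 1 of the long-culture arrays (0.0538 to 0.132). Pold1, the catalytic subunit of the lagging-strand polymerase delta, read 10.15, 9.54 and 10.08 in short culture, 9.78, 9.88 and 9.97 in long culture and 10.10 and 10.06 after serial transplantation. The young groups overlapped (-0.05 ± 0.15, adjusted p = 0.872, or -0.24 without short-culture replicate 2), and both serial-transplant arrays were above long culture of young donors (0.21 ± 0.16, adjusted p = 0.845). Pola1, the catalytic subunit of polymerase alpha, differed by 0.03 ± 0.14 between long and short culture (-0.13 without that array), and Pola2, Pold2, Pold3 and Pole2 by 0.15 to 0.38, none past the test.

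Fen1 and Lig1 remove the flap and seal the nick between Okazaki fragments. Fen1 read 9.33, 8.87 and 9.30 in short culture, 9.80, 9.39 and 9.68 in long culture and 9.31 and 9.48 after serial transplantation. Its long-culture arrays of young donors lay above short culture by 0.46 ± 0.15 without passing (adjusted p = 0.0697), or 0.31 without short-culture replicate 2. With array weights the difference was 0.38 and Fen1 passed (adjusted p = 0.0352), while calls over all probe sets went from 3260 to 5076. The weights were 0.33 for short-culture replicate 2 and 2.78 for long-culture replicate 3. With short-culture replicate 2 left out, Fen1 did not pass (adjusted p = 0.178). Lig1 read 10.57, 9.99 and 10.58 in short culture, 10.40, 10.56 and 10.71 in long culture and 10.64 and 10.64 after serial transplantation. Short-culture replicate 2 is far below the rest for Lig1, and the differences from short culture were 0.18 ± 0.15 for young donors and 0.27 ± 0.17 for serial transplant (adjusted p = 0.509 and 0.431). They came to -0.02 and 0.07 without that array.

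Of the nucleotide supply genes, Tk1 was called in 1 comparison, serial transplant against short culture. Tk1, the thymidine kinase of the salvage route, read 9.00, 8.75 and 8.92 in short culture, 8.99, 9.09 and 9.22 in long culture and 9.25 and 9.45 after serial transplantation. The serial-transplant arrays lay above all 6 others. It rose by 0.46 ± 0.12 over short culture (fold 1.38, adjusted p = 0.0405), and its dimmer probe set gave 0.65 ± 0.22 (adjusted p = 0.102). The call was lost without any 1 of the 5 arrays compared, with adjusted p from 0.0510 to 0.358. Against young donors in long culture the difference was 0.26 ± 0.12 (adjusted p = 0.721). Dut, which keeps uracil out of DNA, read 8.74, 8.56 and 8.69 in short culture, 9.01, 8.91 and 8.96 in long culture and 8.73 and 9.08 after serial transplantation. Its young groups did not overlap, and the difference of 0.30 ± 0.11 did not pass (adjusted p = 0.117). The ribonucleotide reductase subunits went opposite ways without passing: Rrm1 differed by 0.21 ± 0.11 (adjusted p = 0.235) and Rrm2 by -0.14 ± 0.17 (adjusted p = 0.650). Tyms, the source of thymidylate, differed by 0.16 ± 0.15 (adjusted p = 0.531). Without short-culture replicate 2, Rrm2 was at -0.30 and Tyms at 0.02.

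**Figure D5:**
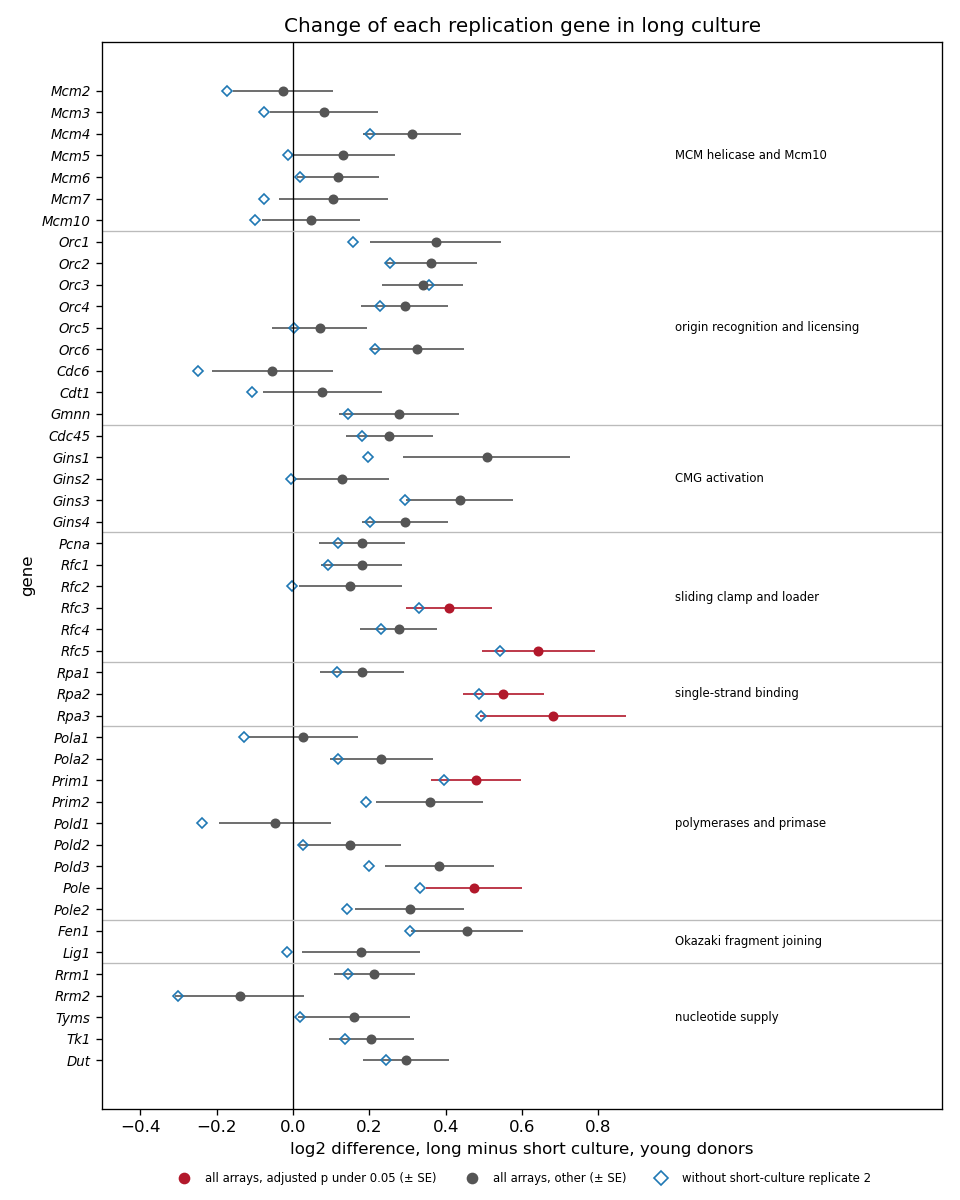
Log2 difference of each gene, long minus short culture of young donors (horizontal axis; points with SE, n = 3 and 3), by role, with the difference without short-culture replicate 2 as open diamonds. Red points mark the 6 genes past an adjusted p of 0.05, and the median of all 46 genes is 0.24, or 0.14 without that array.

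The second comparison sets serially transplanted cells against young-donor cells at the same culture time. None of the 46 members passed, as none of the 28939 probe sets did (0%; limma, Benjamini-Hochberg adjusted p under 0.05), and the members' count was also 0 in all 13 alternatives tried. Members were split between directions, 22 positive and 24 negative, with a median of -0.01. At an unadjusted p under 0.05, Cdt1, Mcm5 and Gins2 were higher and Rfc5 was lower (8.70% of members, against 7.18% of all probe sets). Both serial-transplant arrays lay above all 3 young arrays for 6 members, Mcm5, Cdt1, Gins2, Gins4, Pold1 and Tk1 (13.0%, against 14.5% of probe sets above the median mark). They lay below for Rfc2 and Rfc5 (4.35%, against 14.6%). These shares are near or under those of all probe sets. By role, the medians were 0.20 for Cdc45 and GINS, 0.06 for Mcm2 to Mcm7, -0.07 for the clamp and its loader and -0.13 for RPA, whose 3 subunits were all negative.

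The third comparison, serial transplant in long culture against young donors in short culture, differs in both donor history and culture time and shares arrays with the others. Here 5 members rose: Prim1, Gins3, Rpa2, Gins4 and Tk1. They are 10.9% of the members, against 3.58% of all probe sets and 6.09% of those above the mark called higher. No member fell, against 5.15% called lower. The difference was positive for 42 of 46 members, with a median of 0.24, and both serial-transplant arrays lay above all short-culture arrays for 19 members (41.3%, against 27.6% of probe sets above the mark). Rpa2 and Prim1 were called here and between long and short culture of young donors. With short-culture replicate 2 left out, the median was 0.12, 35 members were positive and 2, Prim1 and Gins3, were called (4.35%, against 2.69% of all probe sets and 4.51% of those above the mark). No member was called when only these 5 arrays entered the fit, where calls over all probe sets went from 2528 to 1251. Leaving out a serial-transplant array leaves 1 in its group, so calls of those fits are not counted here. With 1 of the 5 arrays left out, Prim1 differed by 0.43 to 0.79 and Gins3 by 0.51 to 0.75. Rpa2 then differed by 0.37 to 0.61, Gins4 by 0.38 to 0.62 and Tk1 by 0.36 to 0.56.

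Genes around the replication machinery were taken from lists that exclude the members. The counts of these lists stand beside the shares of all probe sets. Between long and short culture of young donors 9.23% of probe sets above the median mark were called higher, or 5.87% without short-culture replicate 2. For serial transplant against young short culture these shares were 6.09% and 4.51%. Called lower were 5.83% and 5.15% of all probe sets in the 2 comparisons. Of 17 genes that control origin firing, 5 rose between long and short culture of young donors and none fell (median 0.30). They were Dbf4, the activator of the Cdc7 kinase (0.44 ± 0.11, adjusted p = 0.0286), the cyclins Ccne2 (0.59 ± 0.15, adjusted p = 0.0292) and Ccna2 (0.54 ± 0.12, adjusted p = 0.0162), Donson, which helps assemble the active helicase (0.56 ± 0.16, adjusted p = 0.0445), and Mcm8, an MCM relative with a role in recombination (0.57 ± 0.13, adjusted p = 0.0215). Without short-culture replicate 2, Ccna2 kept its call (0.45, adjusted p = 0.0391) and the median was 0.23. Serial-transplant cells against young short culture showed a rise of Mcm8 (0.59) and the helicase Recql4 (0.60; adjusted p = 0.0327 and 0.0433), and no gene of the list was called without that array.

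Fork and checkpoint genes act where the helicase and polymerases meet damage or stall. Of 26 measured, 7 rose between long and short culture and none fell (median 0.18). Rad1, part of the checkpoint clamp, rose by 0.90 ± 0.13 (adjusted p = 0.00338), from 8.63 to 9.53 in group means. Dscc1, of the alternative clamp loader that acts in sister chromatid cohesion, rose by 0.80 ± 0.14 (adjusted p = 0.00652), and Atr, the kinase that responds to single-stranded DNA at stalled forks, by 0.78 ± 0.14 (adjusted p = 0.00639). The others were the nuclease Exo1 (0.54), the loader subunit Chtf8 (0.45), the fork protection factor Tipin (0.43) and the checkpoint mediator Clspn (0.43). Without short-culture replicate 2, Rad1 (0.80), Dscc1 (0.70), Atr (0.64) and Exo1 (0.39) kept their calls and the list median was 0.05. Rad1 (0.96), Dscc1 (0.97) and Atr (0.75) also rose between serial transplant and young short culture, and all 3 kept those calls without that array.

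Of other genes of nucleotide synthesis, 30 were measured, and they moved both ways. Between long and short culture Dctd, which makes dUMP from dCMP (0.58), Samhd1, which breaks down dNTPs (0.46), the mitochondrial folate enzyme Mthfd2 (0.39) and Prps1, which makes the ribose donor PRPP (0.36), rose. The CTP synthase Ctps2 fell by 0.70. The list median was 0.11. Without short-culture replicate 2 no gene of it was called higher, and Ctps2 (-0.47) was still called lower. Against young short culture the serial-transplant cells showed higher Mthfd2 (0.53) and Dctpp1 (0.44) and lower Ctps2 (-1.06) and Prps2 (-0.76), of which Mthfd2 and Ctps2 kept their calls without that array. None of 10 genes of replication-coupled chromatin assembly passed between long and short culture (median 0.20, the largest difference being 0.42 for Chaf1b and 0.38 for Asf1b). Asf1b, a histone chaperone, rose in serial transplant against short culture (0.63 ± 0.15, adjusted p = 0.0277, and 0.0289 without short-culture replicate 2).

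Among 16 E2F and retinoblastoma family genes, 2 rose with culture time in young donors. E2f5, a member counted among the repressive E2Fs, rose by 0.80 ± 0.11 (adjusted p = 0.00249), from 8.24 to 9.04 in group means. Rb1, the retinoblastoma protein itself, rose by 0.59 ± 0.12 (adjusted p = 0.0128). Both kept their calls without short-culture replicate 2 (0.71 and 0.45). In serial transplant against short culture E2f5 (0.63), Rb1 (0.50) and Tfdp1, the partner subunit of E2Fs (0.50), rose, and the pocket protein Rbl2 fell by 0.90 (adjusted p = 0.0447). Of these 4, E2f5 and Tfdp1 kept their calls without short-culture replicate 2. The activator E2f1, E2f2 and E2f3 genes were not called in any comparison.

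G2 and M phase genes act after replication, in chromosome segregation and division, and the difference between their list and the replication genes was not tested. Between long and short culture 14 of 24 rose, all 24 were positive and the median was 0.51, against 6 of 46, 42 of 46 and 0.24 for the replication genes. The largest differences were those of Nusap1 (0.85), a spindle protein, Ttk (0.79), a spindle checkpoint kinase, and Ccnb2 (0.74), a mitotic cyclin. Leaving out short-culture replicate 2, 7 of 24 were called, these 3 among them, and the median was 0.37. In long culture, 20 of 24 G2 and M genes were negative after serial transplantation relative to young donors (median -0.12) and none was called. Mki67, the proliferation marker, was 10.72 in long culture of young donors and 10.32 after serial transplantation (-0.40 ± 0.15, unadjusted p = 0.0257, adjusted p = 0.621). It had the lowest difference of the list and was the 1 gene of 24 at an unadjusted p under 0.05, against 7.18% of all probe sets. In serial transplant against young short culture 4 of 24 rose (median 0.39), and 1 did without short-culture replicate 2.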

How the data were processed

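RNA of 8 samples was extracted with Trizol and hybridised as biotinylated cRNA, per the labels' protocols. The authors deposited RMA signals on a log2 scale (software Partek 6.4, method RMA, as the submitters’ processing notes list them). The log2 scale was read from the values, from 2.42 to 14.81, with array medians of 6.90 to 6.98. RMA gives no detection call, and precision is limited by how few arrays there are. Of 35557 rows, 6618 lie before the first named probe set and were left out as probable controls, which the numbering alone shows. That left 28939 probe sets: 21789 with 1 gene symbol in the platform table, 1621 with several and 5529 with none. By gene number, 21698 of the first kind were found in RefSeq (assembly GRCm38.p6). The build used for the array's own annotation was not given in the sources used here.

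Sample titles gave the groups. The 3 comparisons come from 1 limma fit (limma 3.58.1, R 4.3.3; a coefficient for each group, all 8 arrays; eBayes with 5 residual and 6.28 prior degrees of freedom). Tests are two-sided, with Benjamini-Hochberg adjustment over the 28939 probe sets at 0.05. Differences carry limma's standard error, group means their SD, and intervals are at 95%. The fit was tested on simulated data. No arrays held identical values.

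Array values are printed for members called in any comparison and for the member with the largest absolute difference in each role and comparison. Group means of other members, such as Mcm2 and Pcna, were added after their values were seen. From other lists, genes past the test are named, or otherwise the 2 with the largest differences. The G2 and M phase list and the marker lists are exceptions, where calls are counted and only some genes are named. The members and lists were chosen with earlier results of these data known. Alternatives were limma-trend, array weights, fits of only the groups compared, dim probe sets left out, quantile normalization, centring, the replicate number as a block, averaging a gene's probe sets, and leaving out each array.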

Additional observations from a re-analysis of the deposited data

How the results depend on the processing

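Between long and short culture of young donors, 6 members were called. The count was 10 with array weights and ran from 1 to 6 with 1 array left out, and the 3260 probe sets called became 5076 with array weights and ran from 1091 to 3195 with 1 array left out. The members' median ran from 0.14 to 0.31 over the alternatives. Of the values of the members named in this comparison, 131 kept their side of the threshold, 22 lost the call and 1 (Fen1 with array weights) gained it, and other members are not in this tally. Rpa3 lost its call with only the 6 arrays of the 2 groups in the fit (adjusted p = 0.0521). In long culture, serial transplant against young donors, no member was called under any alternative tried, and the count of probe sets, 0 in the reported fit, was 22 with array weights, 15 with only the 2 groups in the fit and 4 with the replicate block. The count stayed at 0 with any 1 of the young long-culture arrays left out. Without short-culture replicate 2, which enters the shared fit, 1 probe set was called higher and 10 lower. For serial transplant against young short culture the 5 members called became 0 with only the 2 groups in the fit, 9 with dim probe sets left out and 8 with centring, and ran from 0 to 5 with 1 array left out. The 2528 probe sets called there became 1251 with only the 2 groups in the fit and ran from 66 to 2817 with 1 array left out. Tk1 lost its call with the mean of its probe sets (0.0598). No called value changed sign, while the members' median between serial transplant and young donors in long culture, -0.01, ran from -0.09 to 0.08. Where 1 serial-transplant array is left out, the remaining one is assumed to vary like the other groups.

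Deviations of arrays with the same replicate number correlated between -0.27 and 0.18, and not every array correlated best with its own number. Between the young groups the same-number pairs gave 0.08, 0.18 and 0.10, and pairs of unlike number ran from -0.28 to 0.25. With group means removed, the 2 serial-transplant arrays mirror each other. These values therefore cannot tell whether arrays of the same number were paired. With the replicate block 5 members were called between long and short culture, Rfc3 losing its call (0.0703), and 2754 probe sets. Against short culture the serial-transplant comparison with the replicate block also gave 5 members, Cdt1 gaining (0.0484) and Tk1 losing (0.0558) the call. Values near 6.94 or below may carry little signal over background, which was not measured, and the lowest member mean is 7.20 (Gmnn).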
